A study of Mus musculus with 12 samples.

Results

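The comparison set pre-CD8 dendritic cell (DC) progenitors against common DC progenitors (CDPs), the bone marrow cells from which they arise. It used the 5 arrays titled Pre-CD8-1 and -2 (n = 2) and CDP-1 to -3 (n = 3), out of 12 arrays in the series, and covered all genes measured. RNA was hybridised to Affymetrix arrays. All mice were untreated and Zbtb46GFP/+ on a C57Bl/6 background, so both groups were heterozygous for a GFP reporter at Zbtb46, which encodes a factor that marks classical DCs. Cells were harvested from 8 to 10 littermates and sorted to a purity above 95%. Pre-CD8 cells were sorted as lineage-negative, CD135 and CD11c positive, CD117 and MHC class II intermediate and Siglec H negative. CDPs had the same lineage and CD117 gates, expressed CD115 and CD135, and lacked CD11c and MHC class II. For context, values are also given for pre-CD4 progenitors (n = 2; bone marrow, CD117 low, CD115 and CD11c positive, MHC class II negative) and for CD24 DCs (n = 3; CD11c and CD24 positive, CD172a negative), from mice of the same genotype. The label gives CD24 DCs as MHC class II negative, whereas H2-Aa averaged 11.65 there. The labels give neither age nor sex, and do not say if replicate arrays had separate animals or sorts behind them, so the p-values reflect array-to-array spread that may be technical.

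As background, CDPs give rise to plasmacytoid DCs and, through committed pre-DCs, to the 2 classical lineages, cDC1 and cDC2. Pre-CD8 cells are the bone marrow stage committed to cDC1, the CD8α or CD24 lineage that takes up dead cells, displays their antigens on MHC class I to CD8 T cells, and depends on Irf8, Batf3 and Id2. On this path cells lose the stem and granulocyte-monocyte genes that CDPs still carry and take on the receptors, vesicle traffic and signalling genes of an antigen-presenting cell.

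Levels are the authors' deposited log2 values, 1 per probe set, and differences are log2 differences, pre-CD8 minus CDP, ± standard error (SE) from limma, fitted on all 12 arrays, with p-values adjusted by the Benjamini-Hochberg method over all 22180 genes. A gene is called at an adjusted p under 0.05. Of all genes, 509 were called higher in pre-CD8 (2.29%) and 548 lower (2.47%), together 1057 (4.77%), and 778 of these differed by 2-fold or more. For no called gene did the arrays of both groups overlap, while over all genes 36.1% did not overlap, 18.5% higher and 17.6% lower in pre-CD8. The median difference over all genes was 0.03 and the median SE 0.24. No detection calls were used, and low values may lie at background.

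The labels were checked against markers of each population. The pre-CD8 markers Id2 (10.06 and 10.14 in pre-CD8 and 5.32, 4.95 and 5.15 in CDP), Batf3 (9.77 and 9.24 in pre-CD8 and 4.53, 5.38 and 4.97 in CDP) and Xcr1 (6.09 and 7.83 in pre-CD8 and 4.60, 4.16 and 4.27 in CDP) were higher on each pre-CD8 array than on any CDP array, and Cd34 and Csf1r, which mark CDPs, were lower. Other markers chosen for this check, Irf8, Tlr3, Zbtb46 and Cadm1 for pre-CD8 and Flt3 and Kit for CDPs, are not given here. Sort genes followed the gates for Itgax (CD11c), whose difference was 1.90 ± 0.28, and H2-Ab1 (MHC class II), at 5.18 ± 0.41. The same held for Csf1r (CD115), whose difference was -2.61 ± 0.26. Of 11 sort genes 5 were called higher, 2 lower and 4 not called. Calls on sort genes are no findings. Below, a gene given as higher or lower kept its call on leaving out each of the 5 arrays in turn unless a sentence names the array without which the call was lost. List counts are given again where leaving out 1 array, or the arrays numbered 1 of all groups, moved either count or their sum by over 1.5 times and by 2 genes or more, or left no call. Arrays also differed in a way the groups do not explain. Late neutrophil genes such as Ngp (5.12 and 10.87 in pre-CD8 and 5.10, 8.77 and 8.11 in CDP) and S100a8 (8.28 and 11.95 in pre-CD8 and 6.86, 10.25 and 10.26 in CDP) were low on array 1 of both groups and high on the other 3 arrays, which was not called and is described with the granule genes. Without the arrays numbered 1 of all 5 groups, 501 genes were called, 297 higher and 204 lower. Without pre-CD8 array 1 there were 574 calls and without pre-CD8 array 2 there were 510; without CDP arrays 1, 2 and 3 in turn, 668, 725 and 654. In sorted populations, fewer cells with a transcript and less transcript per cell cannot be told apart.

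**Figure D1:**
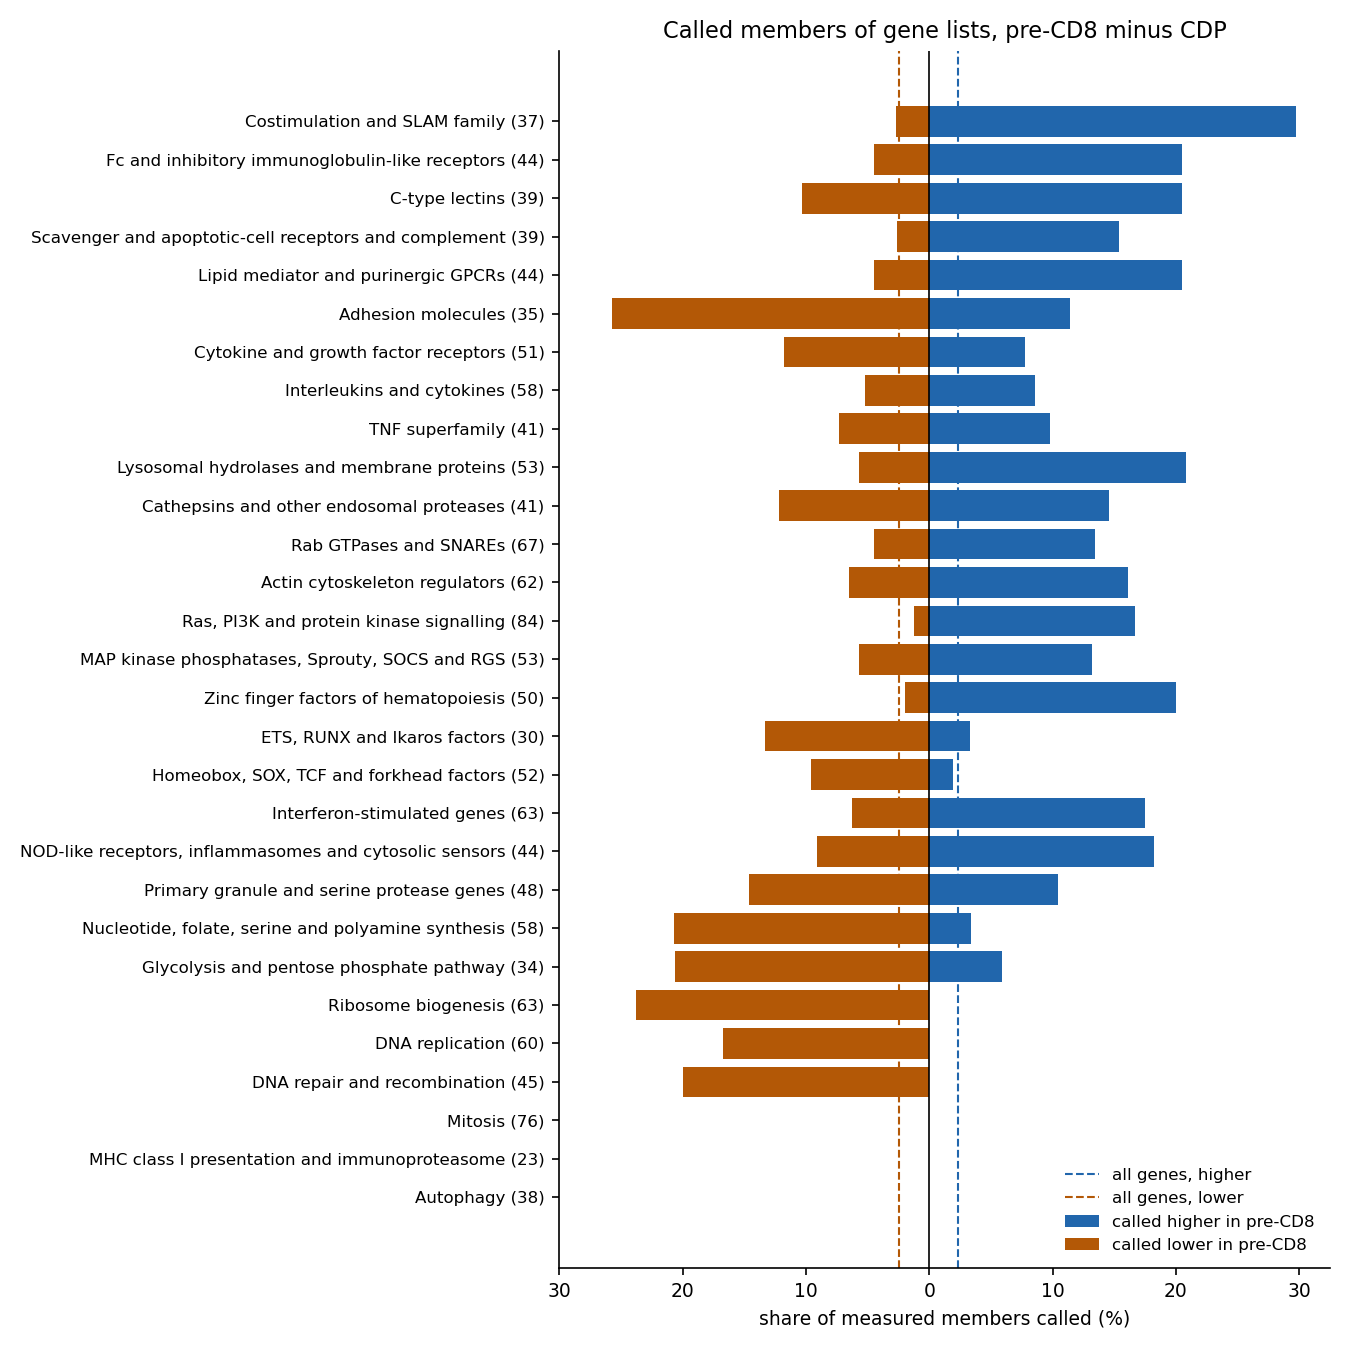
Share of the measured members of 29 gene lists (number measured in brackets) that were called higher in pre-CD8 (right of 0) or lower in pre-CD8 (left of 0), in percent. Dashed lines mark the shares over all genes, 2.29% higher and 2.47% lower. Receptor, vesicle and kinase lists reach to the right, and replication, repair and ribosome biogenesis lists only to the left.

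Calls among receptors that cells use to talk to T and NK cells were mostly higher. All lists were chosen with earlier results of these data known, and 383 of their 2339 measured genes were called. A share called above the 4.77% of all genes was thus foreseeable for a list. Of 37 costimulation and SLAM family genes measured, 11 were higher in pre-CD8 (29.7%, against 2.29% of all genes) and 1 lower. Their median difference was 0.34. Cd226, an activating receptor for nectin-like ligands, stood at 9.0 and 8.64 in the pre-CD8 arrays, against 4.04, 4.24 and 4.01 in the CDP arrays, a 26.3-fold difference (4.72 ± 0.27, adjusted p = 5.55e-07). The CDP values lay within a narrow low band and the pre-CD8 values far above it. Cd86, a ligand of CD28 on T cells, stood at 7.81 and 8.53 in the pre-CD8 arrays, against 4.91, 5.75 and 4.83 in the CDP arrays (3.01 ± 0.31, adjusted p = 8.27e-05). Btla, an inhibitory receptor that binds HVEM, was 4.61-fold higher (2.20 ± 0.30, adjusted p = 0.000707). The single lower member was Lgals9, a galectin, with a difference of -1.26 ± 0.23 (adjusted p = 0.00488). Slamf8 was 4.34-fold higher. Both of those calls depended on single arrays, being lost for Lgals9 without pre-CD8 array 2 (0.0642), and Slamf8 without pre-CD8 array 2 (0.0918), with the adjusted p in brackets. The list had 7 higher and 0 lower without pre-CD8 array 2. Cd86 and Cd226 differed at the next stage. Cd86 was higher again in CD24 DCs than in pre-CD8 (CD24 DC minus pre-CD8 2.68 ± 0.31, adjusted p = 0.000135), while Cd226 was lower in CD24 DCs (-3.62 ± 0.27, adjusted p = 7.92e-06). In that contrast 6.31% of all genes were called.

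Among 44 Fc and immunoglobulin-like receptors, 9 were higher and 2 lower. Pirb, an inhibitory receptor for MHC class I, stood at 9.61 and 8.75 in the pre-CD8 arrays, against 5.71, 6.31 and 6.45 in the CDP arrays (3.02 ± 0.32, adjusted p = 9e-05). Cd22, an inhibitory lectin best known from B cells, stood at 8.45 and 7.83 in the pre-CD8 arrays, against 5.76, 5.39 and 5.44 in the CDP arrays and was 6.1-fold higher (2.61 ± 0.24, adjusted p = 3.77e-05). Fcgrt, the neonatal Fc receptor that recycles IgG, was higher by 2.02 ± 0.22 (adjusted p = 0.000121), as was Cd300lg by 2.29 ± 0.28 (adjusted p = 0.000251). Treml4, a receptor that binds dead cells in the mouse, stood at 6.73 and 7.50 in the pre-CD8 arrays, against 5.10, 5.38 and 5.37 in the CDP arrays. In Treml4 pre-CD8 also exceeded pre-CD4, the progenitor of the other classical lineage (pre-CD8 minus pre-CD4 1.41 ± 0.29, adjusted p = 0.039), in a contrast that called 0.703% of all genes. Cd300lb, an activating CD300 member, was lower and stood at 4.60 and 5.17 in the pre-CD8 arrays, against 6.54, 6.77 and 6.88 in the CDP arrays (-1.84 ± 0.24, adjusted p = 0.000412). Pirb has near-identical relatives, whose signal the probe sets may share. The list's called members numbered 5 higher and 2 lower without pre-CD8 array 1 and 5 higher and 4 lower without pre-CD8 array 2.

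C-type lectins, which bind sugars and other ligands, changed in both directions, with 8 of 39 higher and 4 lower. Clec1a was 4.39-fold higher (2.14 ± 0.27, adjusted p = 0.000358) and Klrb1b 3.82-fold higher (1.93 ± 0.24, adjusted p = 0.000267). Klrk1, which encodes the activating receptor NKG2D, stood at 7.89 and 8.23 in the pre-CD8 arrays, against 5.75, 6.15 and 6.10 in the CDP arrays (adjusted p = 0.00304). Cd69, a lectin that holds back egress through S1PR1, showed the largest fall of the list and stood at 5.87 and 5.48 in the pre-CD8 arrays, against 9.19, 8.72 and 8.57 in the CDP arrays (-3.15 ± 0.39, adjusted p = 0.000285). Clec7a, the β-glucan receptor Dectin-1, was 2.69-fold lower (-1.43 ± 0.26), a call lost without pre-CD8 array 1 (adjusted p = 0.0764). The lectin list had 4 higher and 4 lower without pre-CD8 array 2.

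**Figure D2:**
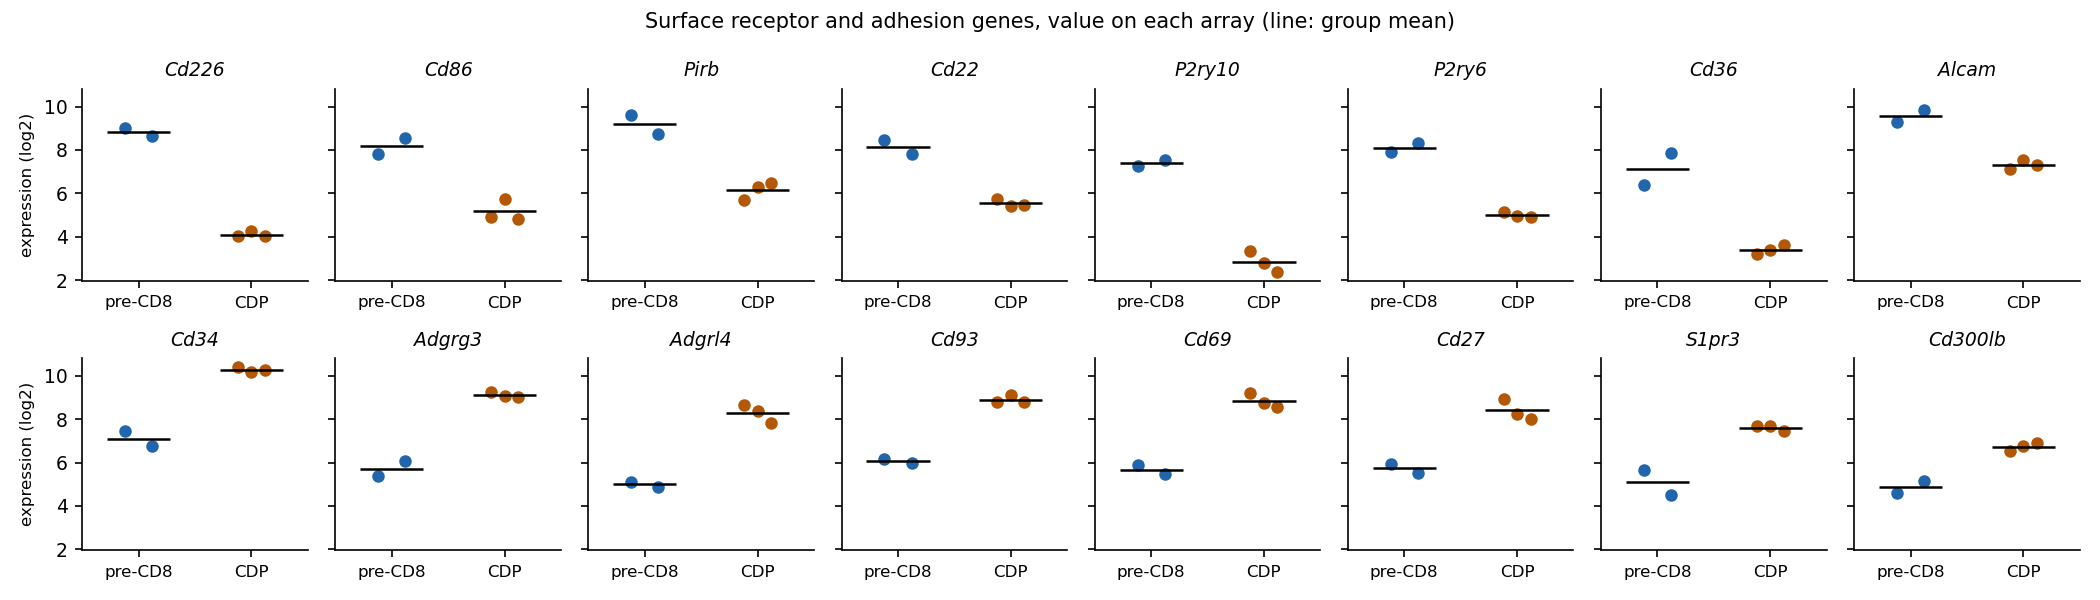
Deposited log2 value of 16 surface receptor and adhesion genes on each array, pre-CD8 (n = 2) left of CDP (n = 3), with points for arrays and a line for the group mean. The upper row holds genes higher in pre-CD8 and the lower row genes lower in pre-CD8. In each panel every pre-CD8 array lies on 1 side of every CDP array, which held for all called genes.

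Calls among receptors for dead cells, lipids and nucleotides were also mostly higher. Of 39 scavenger, apoptotic-cell and complement genes 6 were higher and 1 lower. Cd36, a scavenger receptor for oxidised lipid and fatty acids, stood at 6.36 and 7.84 in the pre-CD8 arrays, against 3.20, 3.36 and 3.64 in the CDP arrays, a 13-fold difference (3.70 ± 0.34, adjusted p = 2.86e-05). Pre-CD8 array 2 was the higher of its pair by more than 1 log2 unit, and both exceeded every CDP array. Cd36 was also higher than in pre-CD4 (3.34 ± 0.37, adjusted p = 0.000555) and higher again in CD24 DCs (CD24 DC minus pre-CD8 3.0 ± 0.34, adjusted p = 9.23e-05). Anxa1 and Cd68 were higher by 2.06 ± 0.31 and 1.51 ± 0.24 (adjusted p = 0.00146 and 0.00175), and Anxa3 was lower at 5.61 and 5.67 in the pre-CD8 arrays, against 8.58, 8.46 and 8.94 in the CDP arrays (-3.02 ± 0.31, adjusted p = 7.94e-05). The list's called members numbered 3 higher and 1 lower without pre-CD8 array 1 or the arrays numbered 1.

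Of 44 receptors for lipid mediators and nucleotides, 9 were higher and 2 lower. P2ry10, a lysophosphatidylserine receptor, stood at 7.27 and 7.55 in the pre-CD8 arrays, against 3.33, 2.80 and 2.36 in the CDP arrays, a 23.9-fold difference (4.58 ± 0.32, adjusted p = 3.16e-06). P2ry6, the UDP receptor, stood at 7.88 and 8.31 in the pre-CD8 arrays, against 5.13, 4.97 and 4.93 in the CDP arrays (3.09 ± 0.32, adjusted p = 7.25e-05). Cysltr1, a cysteinyl leukotriene receptor, was 7.22-fold higher (2.85 ± 0.44, adjusted p = 0.00173). S1pr3, a sphingosine 1-phosphate receptor, went the other way at 5.66 and 4.51 in the pre-CD8 arrays, against 7.68, 7.67 and 7.47 in the CDP arrays (-2.52 ± 0.37, adjusted p = 0.00107). P2ry14, the UDP-glucose receptor, was 4.08-fold higher and its call was lost without pre-CD8 array 2 (adjusted p = 0.207) and CDP array 3 (adjusted p = 0.0555). On leaving out 1 array the counts were 5 higher and 1 lower without pre-CD8 array 1 or CDP array 2 and 3 higher and 2 lower without pre-CD8 array 2.

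Of 35 adhesion genes 4 were higher and 9 lower, while the list median was -0.04 and 22 were not called. Cd34, a sialomucin of haematopoietic progenitors, stood at 7.46 and 6.75 in the pre-CD8 arrays, against 10.41, 10.16 and 10.26 in the CDP arrays (-3.17 ± 0.31, adjusted p = 5.38e-05). Adhesion G protein-coupled receptors made up the 2 largest falls, and Adgrg3 stood at 5.36 and 6.09 in the pre-CD8 arrays, against 9.24, 9.09 and 9.03 in the CDP arrays (-3.40 ± 0.33, adjusted p = 5.38e-05). Adgrl4 was 9.85-fold lower (-3.30 ± 0.34, adjusted p = 7.65e-05) and Adgrg1 4.5-fold lower (-2.17 ± 0.32, adjusted p = 0.0013). Cd93, a progenitor lectin-like receptor, stood at 6.16 and 5.98 in the pre-CD8 arrays, against 8.81, 9.10 and 8.79 in the CDP arrays (-2.83 ± 0.41, adjusted p = 0.00102). Higher members were Alcam, the ligand of CD6 on T cells (2.26 ± 0.27, adjusted p = 0.000205), and the tetraspanins Tspan33 (2.25 ± 0.21, adjusted p = 3.74e-05) and Cd9 (1.49 ± 0.24, adjusted p = 0.00195). Tspan33 and Cd9 also exceeded their pre-CD4 levels (by 1.65 ± 0.23 and 1.30 ± 0.26, adjusted p = 0.00336 and 0.0349). The other probe set of Cd9 differed by only 0.46 between pre-CD8 and CDP.

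Of 24 integrins 2 were higher and 1 lower. The lower one was Itgb5 (-0.94 ± 0.24, adjusted p = 0.0365), whose call was lost without pre-CD8 array 1 (adjusted p = 0.359), CDP array 1 (adjusted p = 0.139) and CDP array 2 (adjusted p = 0.0928). The higher pair were β chains that pair with leukocyte α chains: Itgb2 stood at 9.43 and 9.49 in the pre-CD8 arrays, against 6.77, 6.89 and 7.0 in the CDP arrays (2.57 ± 0.23, adjusted p = 2.6e-05) and Itgb7 at 9.22 and 8.82 in the pre-CD8 arrays, against 7.19, 7.09 and 6.97 in the CDP arrays (1.94 ± 0.27, adjusted p = 0.000754). Itgb7 was lower in CD24 DCs than in pre-CD8 (CD24 DC minus pre-CD8 -1.93 ± 0.27, adjusted p = 0.000527). Among 22 chemokine receptors 2 were higher, Xcr1 and Cxcr3, and Cx3cr1 lower. Cxcr3, a receptor for interferon-induced chemokines, stood at 6.68 and 6.58 in the pre-CD8 arrays, against 4.80, 5.27 and 5.17 in the CDP arrays (1.55 ± 0.19, adjusted p = 0.00031). Its ligand gene Cxcl9 was also higher, at 7.16 and 8.16 in the pre-CD8 arrays, against 4.47, 4.53 and 5.06 in the CDP arrays (2.97 ± 0.31, adjusted p = 7.65e-05), and higher again in CD24 DCs (CD24 DC minus pre-CD8 3.96 ± 0.31, adjusted p = 7.95e-06). Cx3cr1, the fractalkine receptor, differed by -0.98 ± 0.21 (adjusted p = 0.0148), and its call was lost without pre-CD8 array 2 (adjusted p = 0.172) and CDP array 3 (adjusted p = 0.0705).

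Cytokine genes and their receptors were less one-sided, with 5 higher and 3 lower of 58 cytokines and 4 higher and 6 lower of 51 receptors. Il12rb2, a signalling chain of the IL-12 receptor, stood at 8.33 and 8.15 in the pre-CD8 arrays, against 6.26, 5.83 and 5.97 in the CDP arrays (2.22 ± 0.25, adjusted p = 0.000145). Il13ra1, a chain of the IL-4 and IL-13 receptor, was higher by 2.17 ± 0.25 (adjusted p = 0.00019), and Acvrl1, a TGFβ family receptor, by 1.48 ± 0.23 (adjusted p = 0.00173). Il1r1, the IL-1 receptor, was 3.54-fold lower (-1.83 ± 0.33, adjusted p = 0.00539), a call lost without pre-CD8 array 2 (adjusted p = 0.0779). A pair of CC chemokine genes diverged: Ccl6 stood at 7.24 and 7.39 in the pre-CD8 arrays, against 4.59, 5.46 and 4.67 in the CDP arrays (2.41 ± 0.35, adjusted p = 0.00113), and Ccl9 at 6.69 and 7.07 in the pre-CD8 arrays, against 9.36, 9.39 and 9.29 in the CDP arrays (-2.47 ± 0.21, adjusted p = 2.22e-05). Of the 41 TNF superfamily genes 4 were higher and 3 lower, led by Cd27, a costimulatory receptor of early progenitors and lymphocytes, at 5.95 and 5.51 in the pre-CD8 arrays, against 8.95, 8.26 and 8.01 in the CDP arrays (-2.67 ± 0.35, adjusted p = 0.000452). Leaving out 1 array gave 3 higher and 2 lower without pre-CD8 array 1, 2 higher and 3 lower without pre-CD8 array 2 and 3 higher and 3 lower without CDP array 1 or CDP array 2 among the cytokines. The receptors had 3 higher and 2 lower without pre-CD8 array 1 or the arrays numbered 1. The TNF superfamily had 1 higher and 3 lower without pre-CD8 array 1, 2 higher and 3 lower without pre-CD8 array 2 and 1 higher and 1 lower without the arrays numbered 1.

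Genes of the endosome and lysosome changed by member, not as a block. Of 53 lysosomal hydrolase and membrane genes 11 were higher and 3 lower, with a median of -0.01. Naaa, a lysosomal amidase that breaks down fatty acid ethanolamides, stood at 9.75 and 10.95 in the pre-CD8 arrays, against 5.81, 5.76 and 6.35 in the CDP arrays, a 20.8-fold difference (4.38 ± 0.30, adjusted p = 2.76e-06). Arsb, arylsulfatase B, was higher by 2.41 ± 0.27 (adjusted p = 0.000121). None of 17 subunits of the proton pump V-ATPase was called by limma, and 3 had an unadjusted p under 0.05, all higher. Under the alternatives 0 or 1 was called. The largest was Atp6v0a2, at 7.98 and 8.35 in the pre-CD8 arrays, against 7.16, 7.25 and 7.40 in the CDP arrays (adjusted p = 0.0526). Of 41 endosomal and surface proteases and inhibitors 6 were higher and 5 lower. Anpep, aminopeptidase N or CD13, stood at 8.46 and 9.65 in the pre-CD8 arrays, against 4.80, 5.10 and 5.25 in the CDP arrays (4.01 ± 0.31, adjusted p = 6.67e-06) and Adam19, a shedding protease, at 7.58 and 8.53 in the pre-CD8 arrays, against 4.12, 4.63 and 4.87 in the CDP arrays (3.52 ± 0.29, adjusted p = 1.52e-05). Lower were Cst7, the cathepsin inhibitor cystatin F (7.19 and 6.69 in the pre-CD8 arrays, against 9.76, 9.51 and 9.63 in the CDP arrays; -2.70 ± 0.29, adjusted p = 9.1e-05), and the proteases Ctsd (-1.91 ± 0.27, adjusted p = 0.000732) and Tpp1 (-1.44 ± 0.23, adjusted p = 0.00186). The lysosomal list's called members numbered 7 higher and 1 lower without pre-CD8 array 1 or CDP array 2, 4 higher and 1 lower without pre-CD8 array 2 or the arrays numbered 1, 5 higher and 2 lower without CDP array 1 and 5 higher and 1 lower without CDP array 3. The protease list had 5 higher and 3 lower without pre-CD8 array 1 and 4 higher and 3 lower without CDP array 3.

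Small GTPases of vesicle traffic supplied 9 higher and 3 lower of 67 Rab and SNARE genes. Rab7b stood at 8.43 and 8.89 in the pre-CD8 arrays, against 5.14, 6.03 and 5.19 in the CDP arrays (3.20 ± 0.30, adjusted p = 3.31e-05). Rab39 stood at 6.88 and 6.24 in the pre-CD8 arrays, against 3.74, 3.65 and 3.88 in the CDP arrays (2.80 ± 0.29, adjusted p = 8.35e-05) and Rab30 at 7.43 and 7.23 in the pre-CD8 arrays, against 5.13, 4.29 and 4.25 in the CDP arrays (2.77 ± 0.29, adjusted p = 7.94e-05). Rab43, which mouse CD8α DCs use for cross-presentation, stood at 7.92 and 8.63 in the pre-CD8 arrays, against 5.84, 6.21 and 5.91 in the CDP arrays (2.29 ± 0.23, adjusted p = 6.63e-05). Wdfy4, another gene of cross-presentation in cDC1, was 4.9-fold higher (2.29 ± 0.22, adjusted p = 5.08e-05). Rab7b, Rab30 and Wdfy4 set pre-CD8 apart from pre-CD4 as well (pre-CD8 minus pre-CD4 4.02 ± 0.32, 3.21 ± 0.31 and 2.34 ± 0.24, adjusted p = 3.3e-05, 0.00023 and 0.000412). Rab44 went the other way, at 6.36 and 7.19 in the pre-CD8 arrays, against 9.90, 9.85 and 9.80 in the CDP arrays (-3.08 ± 0.31, adjusted p = 7.16e-05). Of 23 genes of MHC class I presentation none was called by limma, with a list median of 0.36 and 5 higher and 2 lower at an unadjusted p under 0.05. Under the alternatives 0 to 3 were called higher and 0 or 1 lower. Autophagy genes also gave no call among 38, with 5 higher and 4 lower at an unadjusted p under 0.05 and a median of -0.01; under the alternatives 0 or 1 was called higher and 0 to 3 lower. The Rab and SNARE list had 6 higher and 1 lower without pre-CD8 array 1, pre-CD8 array 2, CDP array 3 or the arrays numbered 1.

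Regulators of the actin cytoskeleton were higher in 10 of 62 cases and lower in 4. Rnd3, whose product opposes contraction, stood at 8.90 and 9.20 in the pre-CD8 arrays, against 5.19, 5.88 and 6.16 in the CDP arrays (3.30 ± 0.26, adjusted p = 1.01e-05). The formin Fmnl2, which elongates actin filaments, was higher by 2.31 ± 0.21 (adjusted p = 2.6e-05), the leukocyte actin-binding protein gene Lsp1 by 2.02 ± 0.17 (adjusted p = 2.22e-05) and Dock5, a Rac activator, by 1.81 ± 0.23 (adjusted p = 0.000322). Cnn3, a calponin, was lower at 6.37 and 5.57 in the pre-CD8 arrays, against 9.24, 8.62 and 8.64 in the CDP arrays (-2.86 ± 0.31, adjusted p = 9.1e-05). Against pre-CD4, the differences of Rnd3, Fmnl2 and Lsp1 were -0.23 ± 0.29, -0.09 ± 0.23 and -0.01 ± 0.19, none of them called. The actin list had 9 higher and 2 lower without pre-CD8 array 1 or CDP array 1, 5 higher and 2 lower without pre-CD8 array 2 and 8 higher and 1 lower without the arrays numbered 1.

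Of 84 Ras, PI3K and protein kinase genes 14 were higher and 1 lower, with a median of 0.19. Pik3cb, a catalytic PI3K subunit, stood at 8.61 and 9.32 in the pre-CD8 arrays, against 6.19, 6.70 and 6.45 in the CDP arrays (2.52 ± 0.25, adjusted p = 5.38e-05). Pik3r5, the adaptor of the PI3Kγ complex, was higher by 1.62 ± 0.19 (adjusted p = 0.000198). The Ras activators Rasgrp3 and Rasgrp4 stood at 6.48 and 7.98 in the pre-CD8 arrays, against 4.63, 4.81 and 4.75 in the CDP arrays and at 7.94 and 7.87 in the pre-CD8 arrays, against 5.06, 5.77 and 5.60 in the CDP arrays (2.50 ± 0.37 and 2.43 ± 0.32, adjusted p = 0.00117 and 0.000543). Pre-CD8 array 2 carried the higher Rasgrp3 value by more than 1 log2 unit. Camk1d, a calcium-dependent kinase gene, was higher by 2.18 ± 0.25 (adjusted p = 0.000159). Of 53 phosphatase, Sprouty, SOCS and RGS genes, which damp signals, 7 were higher and 3 lower. Rgs1, which shortens chemokine receptor signals, stood at 7.12 and 7.47 in the pre-CD8 arrays, against 5.40, 4.29 and 3.43 in the CDP arrays (2.93 ± 0.43, adjusted p = 0.00115). Dusp16 was higher by 1.46 ± 0.26 (adjusted p = 0.00427) and Dusp7 lower by -1.73 ± 0.20 (adjusted p = 0.00019), both being MAP kinase phosphatase genes. The kinase list had 9 higher and 3 lower without pre-CD8 array 2. The damping list had 5 higher and 1 lower without pre-CD8 array 1, 7 higher and 1 lower without CDP array 1, CDP array 2 or CDP array 3 and 3 higher and 1 lower without the arrays numbered 1.

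Transcription regulators split by family. Among 50 zinc finger genes of haematopoiesis 10 were higher and 1 lower. Zfp366, which encodes DC-SCRIPT, stood at 7.82 and 8.07 in the pre-CD8 arrays, against 4.0, 3.89 and 4.27 in the CDP arrays, a 14.9-fold difference (3.90 ± 0.22, adjusted p = 5.14e-07), and also exceeded pre-CD4 (3.57 ± 0.24, adjusted p = 8.43e-06). Bcl6, a repressor known from germinal centres and DC subsets, stood at 8.92 and 9.20 in the pre-CD8 arrays, against 6.36, 6.34 and 6.31 in the CDP arrays (2.72 ± 0.20, adjusted p = 3.89e-06). Klf3 was higher by 1.96 ± 0.29 (adjusted p = 0.00112) and Zfp36l1, an RNA-binding protein gene that promotes mRNA decay, by 2.01 ± 0.24 (adjusted p = 0.000228). Outside this family, Arid3b (2.48 ± 0.24, adjusted p = 5.41e-05) and the calcineurin-dependent factor Nfatc2 (1.92 ± 0.20, adjusted p = 7.94e-05) were higher. The zinc finger list had 7 higher and 0 lower without pre-CD8 array 2.

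ETS, RUNX and Ikaros genes gave 1 higher and 4 lower of 30, and homeobox, SOX, TCF, forkhead and related genes 1 higher and 5 lower of 52. Erg, a stem cell ETS factor, stood at 4.63 and 5.48 in the pre-CD8 arrays, against 8.44, 8.11 and 7.78 in the CDP arrays, 8.32-fold lower (-3.06 ± 0.32, adjusted p = 8.66e-05). Elk3, a ternary complex factor of the same family, was lower by -1.84 ± 0.25 (adjusted p = 0.000596). Myb, needed for proliferation of blood progenitors, stood at 8.19 and 7.70 in the pre-CD8 arrays, against 10.48, 10.50 and 10.45 in the CDP arrays (-2.53 ± 0.23, adjusted p = 2.96e-05), with CDP arrays almost equal to each other. Satb1, a chromatin organiser, was 2.5-fold lower (-1.32 ± 0.19, adjusted p = 0.00103). The receptor genes Notch2 and Notch1 differed in sign: Notch2 stood at 9.19 and 9.65 in the pre-CD8 arrays, against 8.14, 8.23 and 8.14 in the CDP arrays (1.24 ± 0.21) and Notch1 at 6.57 and 6.61 in the pre-CD8 arrays, against 7.70, 7.73 and 7.68 in the CDP arrays (-1.11 ± 0.19), with adjusted p = 0.0027 and 0.00294. The Notch2 call was lost without pre-CD8 array 2 (adjusted p = 0.0588). The ETS list had 0 higher and 3 lower without pre-CD8 array 1, CDP array 3 or the arrays numbered 1, 0 higher and 2 lower without pre-CD8 array 2 and 1 higher and 2 lower without CDP array 1. The homeobox list had 0 higher and 3 lower without pre-CD8 array 1, pre-CD8 array 2 or CDP array 3, 1 higher and 3 lower without CDP array 1 and 0 higher and 2 lower without the arrays numbered 1. Among 42 bZIP genes 5 were higher and 2 lower. The 2 lower ones are not named here. Beside Batf3 the higher ones were immediate-early genes, with Fosb at 1.41 ± 0.30, Junb at 1.23 ± 0.26, Fos at 1.19 ± 0.29 and Atf3 at 1.64 ± 0.43 (adjusted p = 0.013, 0.0133, 0.0288 and 0.047). Their calls were lost for Fosb without pre-CD8 array 1 (0.0757), pre-CD8 array 2 (0.109), CDP array 2 (0.0567) and CDP array 3 (0.0602); Junb without pre-CD8 array 1 (0.164) and CDP array 2 (0.0552); Fos without pre-CD8 array 1 (0.183), pre-CD8 array 2 (0.127), CDP array 2 (0.11) and CDP array 3 (0.105); Atf3 without pre-CD8 array 1 (0.0525), pre-CD8 array 2 (0.385), CDP array 1 (0.154), CDP array 2 (0.0561) and CDP array 3 (0.129). The bZIP list had 2 higher and 1 lower without pre-CD8 array 1 or CDP array 3, 2 higher and 0 lower without pre-CD8 array 2 and 1 higher and 1 lower without CDP array 2.

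**Figure D3:**
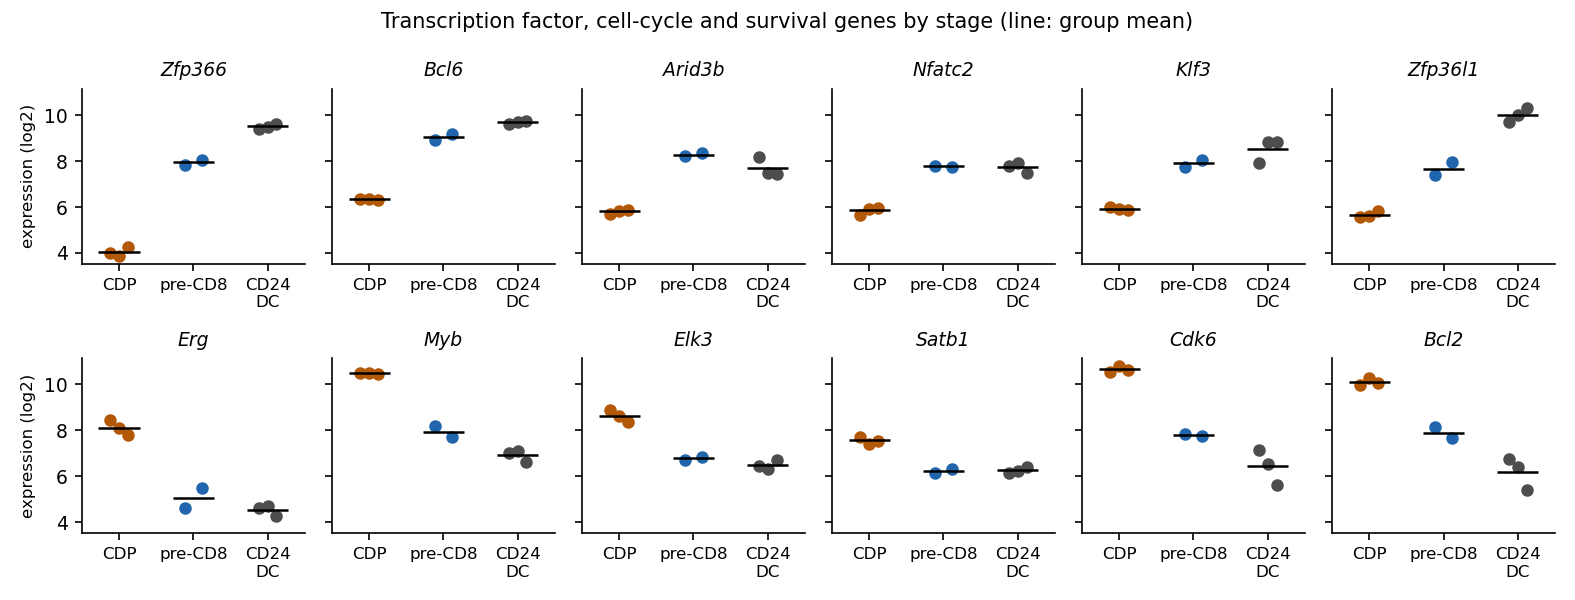
Deposited log2 value on each array of 12 regulator, cell-cycle and survival genes along the stages CDP (n = 3), pre-CD8 (n = 2) and CD24 DC (n = 3), with a line for the group mean. The upper row holds genes higher in pre-CD8 than in CDP, such as Zfp366 and Bcl6, and the lower row genes lower in pre-CD8, such as Erg, Myb and Cdk6.

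Interferon-stimulated genes were higher in 11 of 63 cases and lower in 4, with a median of 0.26. Phf11b stood at 10.34 and 11.06 in the pre-CD8 arrays, against 7.55, 7.33 and 7.37 in the CDP arrays, a 9.77-fold difference (3.29 ± 0.25, adjusted p = 5.57e-06). Mx1, an antiviral GTPase, stood at 7.02 and 7.04 in the pre-CD8 arrays, against 4.58, 5.03 and 4.79 in the CDP arrays (2.23 ± 0.27, adjusted p = 0.000251). Irf7, which drives type I interferon genes, stood at 7.31 and 7.62 in the pre-CD8 arrays, against 5.19, 5.59 and 5.54 in the CDP arrays (2.02 ± 0.30, adjusted p = 0.00124). Slfn5 and Slfn2 were higher by 2.20 ± 0.30 and 2.01 ± 0.27 (adjusted p = 0.000605 and 0.000562). A pair of guanylate-binding protein genes, also interferon-induced, were lower: Gbp3 stood at 4.65 and 4.93 in the pre-CD8 arrays, against 7.05, 7.17 and 7.02 in the CDP arrays (-2.29 ± 0.30, adjusted p = 0.000493), and Gbp7 was 4.78-fold lower (-2.26 ± 0.41, adjusted p = 0.00512), a call lost without pre-CD8 array 1 (adjusted p = 0.0821). Phf11, Slfn and Gbp genes have close relatives whose signal the probe sets may share. The list's called members numbered 6 higher and 1 lower without pre-CD8 array 1, 6 higher and 2 lower without pre-CD8 array 2 and 8 higher and 2 lower without CDP array 2 or CDP array 3.

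Cytosolic sensors and cell-death effectors showed 8 of 44 higher and 4 lower. Ifi207, of the Ifi200 DNA sensor family, was higher by 2.52 ± 0.29 (adjusted p = 0.000191), and Zbp1, a sensor of Z-form nucleic acid, stood at 7.42 and 7.39 in the pre-CD8 arrays, against 6.01, 5.75 and 5.73 in the CDP arrays (1.58 ± 0.27, adjusted p = 0.00309). Mlkl, the executor of necroptosis that acts downstream of Zbp1, moved the opposite way, at 6.50 and 6.33 in the pre-CD8 arrays, against 8.32, 8.05 and 8.04 in the CDP arrays (-1.72 ± 0.20, adjusted p = 0.000198). Nlrc4, an inflammasome sensor, was lower by -1.74 ± 0.25 (adjusted p = 0.00102). The Toll-like receptor relative Cd180 was higher by 1.65 ± 0.20 (adjusted p = 0.000292). The sensor list had 5 higher and 2 lower without pre-CD8 array 1, 4 higher and 2 lower without pre-CD8 array 2, 7 higher and 2 lower without CDP array 3 and 3 higher and 2 lower without the arrays numbered 1.

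Promoters were searched on both strands for the core of the interferon-stimulated response element, a pair of GAAA with any 2 bases between them. Many interferon-stimulated genes are induced through this element. Its high share in their list was therefore foreseeable and is no finding about pre-CD8. The promoter table (RefSeq, GRCm38.p6, from 250 bases before to 50 after a gene's start) held 16990 of the 22180 genes. The element was present for 26 of 48 listed interferon-stimulated genes with a promoter (54.2%), against 657 of all 16990 genes (3.87%). Of the 11 listed genes called higher, 8 had a promoter in the table, and 3 of these 8 held the element (37.5%). Over all genes with a promoter, 31 of the 410 called higher (7.56%) and 19 of the 442 called lower (4.3%) had it, which was not tested. The promoter of Phf11b, the list's largest difference, is shown with the match in capitals (chr14:59341281-59341580, minus strand).
Phf11b: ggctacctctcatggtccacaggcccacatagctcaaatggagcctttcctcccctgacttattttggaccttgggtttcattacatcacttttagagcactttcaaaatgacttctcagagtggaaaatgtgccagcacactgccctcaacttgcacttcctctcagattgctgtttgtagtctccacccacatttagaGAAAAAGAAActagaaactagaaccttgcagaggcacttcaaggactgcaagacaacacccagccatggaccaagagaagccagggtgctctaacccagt

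Calls among genes of DNA replication were all lower, and genes of mitosis gave no call. Of 60 replication genes none was higher, 10 were lower, and the median difference was -0.67, against 0.03 over all genes. Of 76 mitosis genes none was called by limma in either direction, the median was 0.24, and 8 were higher and 0 lower at an unadjusted p under 0.05. Under the alternatives 0 to 2 mitosis genes were called, all higher. Mcm3, a subunit of the replicative helicase MCM, stood at 7.82 and 7.75 in the pre-CD8 arrays, against 9.04, 9.29 and 9.28 in the CDP arrays (-1.42 ± 0.25, adjusted p = 0.00389). Its partners Mcm6 and Mcm7 were lower by -1.31 ± 0.29 and -1.14 ± 0.27 (adjusted p = 0.0204 and 0.025), Orc1, of the origin recognition complex, by -1.32 ± 0.22 (adjusted p = 0.00252), and Chaf1b, a histone chaperone of replication, by -1.32 ± 0.21 (adjusted p = 0.00235). The mitosis genes with the largest differences were Melk, a kinase (8.29 and 8.08 in pre-CD8 and 7.36, 7.33 and 7.32 in CDP), Cenpf, a kinetochore protein (8.95 and 8.98 in pre-CD8 and 8.09, 8.38 and 8.27 in CDP), and Racgap1, of the cytokinesis machinery (8.97 and 9.0 in pre-CD8 and 8.11, 8.31 and 8.40 in CDP). All 3 stood higher on each pre-CD8 array than on any CDP array without passing the test (adjusted p = 0.0917, 0.0855 and 0.0554). The difference between both lists was not tested.

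The number of replication calls depended on single arrays, although their direction did not. Members called lower numbered 5 without pre-CD8 array 1, 2 without pre-CD8 array 2, 6 without any 1 of the CDP arrays and 2 without the arrays numbered 1, while the list median stayed between -0.81 and -0.47. Calls were lost for Mcm6 without pre-CD8 array 1 (0.108), pre-CD8 array 2 (0.137), CDP array 2 (0.0627) and CDP array 3 (0.0694), Mcm7 without pre-CD8 array 1 (0.059), pre-CD8 array 2 (0.231), CDP array 1 (0.0891), CDP array 2 (0.0604) and CDP array 3 (0.067), and Orc1 without pre-CD8 array 2 (0.0563).

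**Figure D4:**
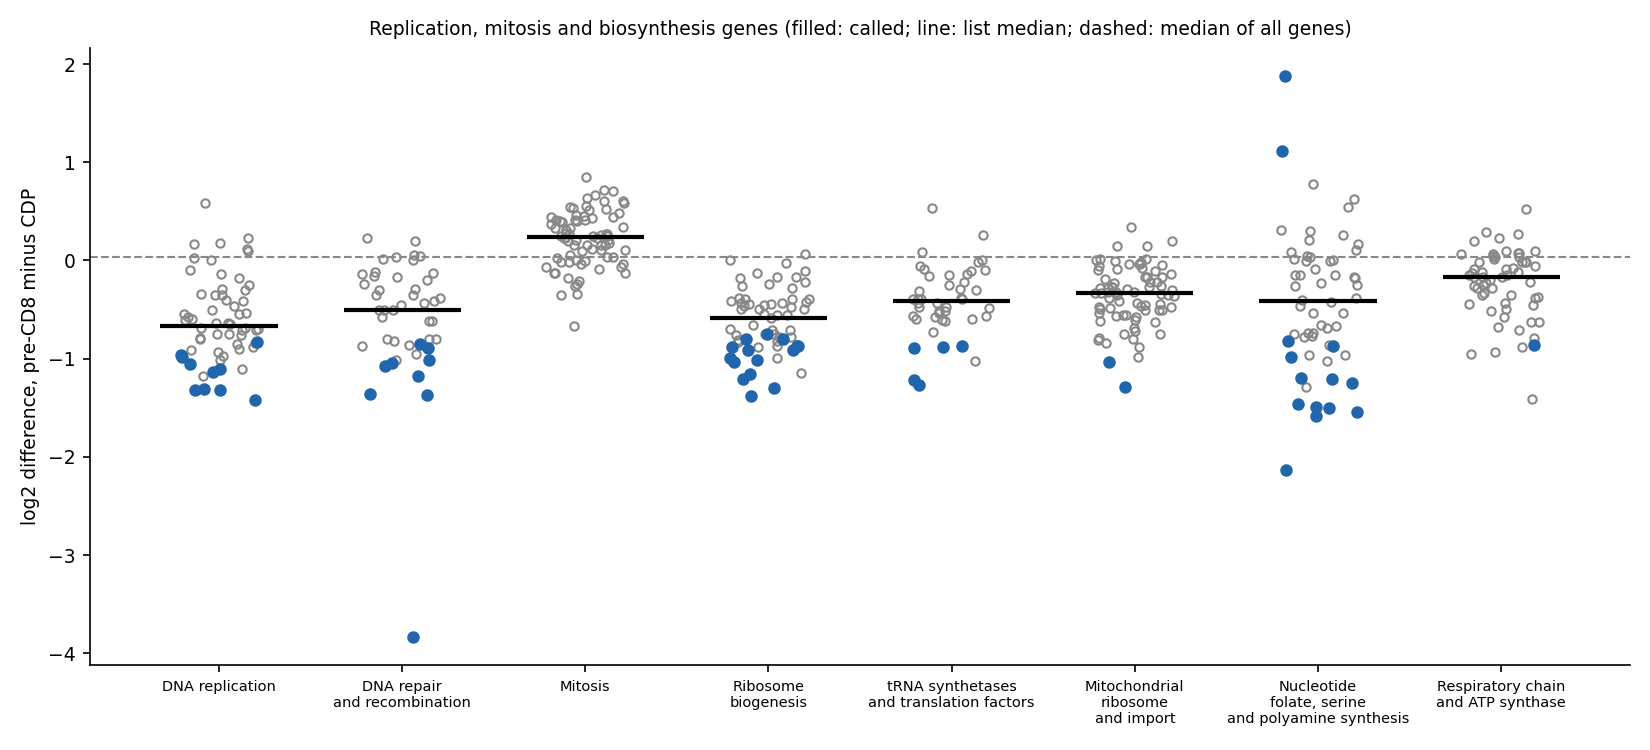
Log2 difference, pre-CD8 minus CDP, of every measured member of 8 lists, with called genes filled, a thick line at the list median and a dashed line at the median of all genes (0.03). DNA replication (-0.67) and ribosome biogenesis (-0.59) lie below the dashed line and mitosis (0.24) above it.

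Promoters of these lists were searched for TTTNNCGC on both strands, a core form of the E2F site that many replication genes carry. It was present for 22 of 50 replication genes with a promoter (44.0%) and 13 of 65 mitosis genes, against 1216 of 16990 genes in all (7.16%). Of the 10 replication genes called lower, 8 had a promoter in the table, and 5 of these 8 held the site (62.5%). A high share among replication genes was foreseeable and is no finding about pre-CD8. Over all genes with a promoter, 42 of the 442 called lower (9.5%) and 19 of the 410 called higher (4.63%) had it, which was not tested. The promoter of Mcm3, the replication gene with the largest difference, holds 2 matches near its start, shown in capitals (RefSeq, GRCm38.p6, chr1:20820263-20820562, minus strand).
Mcm3: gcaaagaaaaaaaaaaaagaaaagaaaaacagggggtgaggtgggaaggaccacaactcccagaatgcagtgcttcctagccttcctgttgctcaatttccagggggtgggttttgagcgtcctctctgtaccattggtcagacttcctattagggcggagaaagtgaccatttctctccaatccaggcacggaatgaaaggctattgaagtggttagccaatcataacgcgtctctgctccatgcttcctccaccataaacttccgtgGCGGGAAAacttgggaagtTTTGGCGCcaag

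Of 39 cyclin, CDK inhibitor and p53 target genes 2 were higher and 5 lower, with a list median of 0.16 and 26 of the 39 differences above 0. The list had 0 higher and 3 lower without pre-CD8 array 1, CDP array 3 or the arrays numbered 1, 0 higher and 1 lower without pre-CD8 array 2, 0 higher and 2 lower without CDP array 1 and 1 higher and 3 lower without CDP array 2. Cdk6, the G1 kinase of progenitors, stood at 7.83 and 7.74 in the pre-CD8 arrays, against 10.55, 10.80 and 10.64 in the CDP arrays (-2.88 ± 0.35, adjusted p = 0.000292), 1 of the 20 largest falls. Ccnd2, the cyclin that pairs with it, was 4.05-fold lower (-2.02 ± 0.37, adjusted p = 0.00522), a call lost without pre-CD8 array 2 (adjusted p = 0.0847). Of 45 DNA repair and recombination genes none was higher and 9 were lower, with a median of -0.50. The largest fall was that of Dntt, the terminal transferase gene (-3.84 ± 0.42, adjusted p = 0.000121). Xpc, which recognises damaged bases in excision repair, was lower by -1.36 ± 0.20 (adjusted p = 0.00135). The list had 5 lower without pre-CD8 array 1, CDP array 1, CDP array 2 or CDP array 3 and 2 lower without pre-CD8 array 2 or the arrays numbered 1. Bcl2, the survival gene, stood at 8.15 and 7.65 in the pre-CD8 arrays, against 9.98, 10.28 and 10.08 in the CDP arrays (-2.21 ± 0.34, adjusted p = 0.00175). Its relative Bcl2a1a, whose copies are near-identical, was higher at 6.63 and 6.99 in the pre-CD8 arrays, against 4.77, 4.27 and 5.08 in the CDP arrays (2.10 ± 0.36, adjusted p = 0.00356), a call lost without pre-CD8 array 2 (adjusted p = 0.0541). Apart from this pair, none of the 32 Bcl2 family and cell death genes was called. The share called was 6.2%, against 4.77% of all genes.

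The lists of ribosome biogenesis and nucleotide synthesis had medians below that of all genes. Of 63 ribosome biogenesis genes 15 were lower and none higher, with a median of -0.59, and 61 of the 63 differences were below 0. Rrp1b, an rRNA processing factor, stood at 6.06 and 6.03 in the pre-CD8 arrays, against 7.50, 7.54 and 7.24 in the CDP arrays (-1.38 ± 0.22, adjusted p = 0.00186), and Gnl3, nucleostemin, was lower by -1.20 ± 0.22 (adjusted p = 0.00488). Their list had 5 lower without pre-CD8 array 1, pre-CD8 array 2 or CDP array 1, 3 lower without CDP array 3 and no call without the arrays numbered 1. Of 58 genes for nucleotide, folate, serine and polyamine synthesis 12 were lower and 2 higher, with a median of -0.42. Shmt2, the mitochondrial enzyme that feeds serine into folate, stood at 7.32 and 7.02 in the pre-CD8 arrays, against 9.34, 9.35 and 9.24 in the CDP arrays (-2.14 ± 0.29, adjusted p = 0.000623). Mthfd1, of the same folate cycle, was lower by -1.49 ± 0.21 (adjusted p = 0.000732) and Ppat, the first committed enzyme of purine synthesis, by -1.50 ± 0.24 (adjusted p = 0.00218). Kmo, which degrades the tryptophan product kynurenine, was the largest exception, higher at 9.81 and 9.93 in the pre-CD8 arrays, against 7.72, 8.12 and 8.14 in the CDP arrays (1.88 ± 0.27, adjusted p = 0.000938). This list had 1 higher and 4 lower without pre-CD8 array 2, 2 higher and 7 lower without CDP array 1 or CDP array 3 and 1 higher and 7 lower without the arrays numbered 1.

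Among translation genes Eif3b, an initiation factor subunit, was lower by -1.27 ± 0.21 (adjusted p = 0.00265), 1 of 5 lower of 44 (11.4%). The mitochondrial chaperone gene Hspa9 was lower by -1.29 ± 0.17 (adjusted p = 0.000443). It was 1 of 2 lower of 76 mitochondrial ribosome and import genes (2.6%), near the 2.47% called lower over all genes. The translation list had 2 lower without pre-CD8 array 1, CDP array 1, CDP array 2 or the arrays numbered 1 and 1 lower without pre-CD8 array 2. Of 59 genes in the respiratory chain and ATP synthase list only Ogdh was called, lower by -0.86 ± 0.21 (adjusted p = 0.0287). Ogdh encodes a TCA cycle enzyme, so no subunit of the chain itself was called in the main fit. The Ogdh call was lost without either pre-CD8 array, CDP array 1 (adjusted p = 0.0666), CDP array 2 (adjusted p = 0.0893) or CDP array 3 (adjusted p = 0.103). Of the 59 differences in that list 44 were below 0, with 11 lower and 0 higher at an unadjusted p under 0.05. Under the alternatives 0 to 5 of its genes were called lower and none higher, with 5 under the filter on dim genes. Of 34 glycolysis and pentose phosphate genes 7 were lower and 2 higher, with a median of -0.35. Pgd, of the pentose phosphate pathway that yields NADPH, stood at 6.57 and 6.55 in the pre-CD8 arrays, against 7.87, 7.97 and 8.07 in the CDP arrays (-1.41 ± 0.25, adjusted p = 0.0041), and the lactate carrier Slc16a1 was lower by -1.27 ± 0.21 (adjusted p = 0.00268). That list had 0 higher and 2 lower without pre-CD8 array 1, 0 higher and 3 lower without pre-CD8 array 2 or CDP array 3, 2 higher and 3 lower without CDP array 1 and 1 higher and 2 lower without the arrays numbered 1.

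Lipid enzymes were divided evenly, 7 higher and 7 lower of 63. Enzymes that remodel membrane phospholipids and handle prostanoids were among the higher: Lpcat4 (1.99 ± 0.21, adjusted p = 8.27e-05) and Lpcat1 (1.32 ± 0.19, adjusted p = 0.00115) reacylate lysophospholipids, Hpgd (1.93 ± 0.27, adjusted p = 0.000726) inactivates prostaglandins and Tbxas1 (1.63 ± 0.20, adjusted p = 0.000316) makes thromboxane. Tbxas1 stood at 7.53 and 7.62 in the pre-CD8 arrays, against 5.91, 6.06 and 5.86 in the CDP arrays and also exceeded pre-CD4 (1.80 ± 0.22, adjusted p = 0.00144). Srebf2, which drives cholesterol synthesis, was higher by 1.25 ± 0.20 (adjusted p = 0.00182). It was the single call among 21 genes of that pathway (4.8%), near the 4.77% called over all genes. Among 71 carriers 5 were higher and 7 lower. Slc46a3, a lysosomal carrier, stood at 8.92 and 9.16 in the pre-CD8 arrays, against 5.07, 5.22 and 5.10 in the CDP arrays, a 15-fold difference (3.91 ± 0.23, adjusted p = 6.31e-07). Atp2b4, a calcium pump of the plasma membrane, stood at 7.37 and 6.06 in the pre-CD8 arrays, against 9.18, 9.34 and 8.90 in the CDP arrays (-2.42 ± 0.33, adjusted p = 0.000578), and the sodium pump subunit gene Atp1b1 was lower by -1.89 ± 0.24 (adjusted p = 0.000327). The lipid list had 5 higher and 2 lower without pre-CD8 array 1, 6 higher and 1 lower without pre-CD8 array 2, 6 higher and 4 lower without CDP array 1, 7 higher and 4 lower without CDP array 3 and 6 higher and 2 lower without the arrays numbered 1. The carrier list had 3 higher and 4 lower without pre-CD8 array 1, 4 higher and 3 lower without pre-CD8 array 2, 4 higher and 4 lower without CDP array 1, 3 higher and 5 lower without CDP array 2, 2 higher and 6 lower without CDP array 3 and 2 higher and 4 lower without the arrays numbered 1.

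Neutrophil granule genes fell into 2 sets. Of 48 primary granule and serine protease genes 5 were higher and 7 lower, the lower ones including genes that granulocyte-monocyte progenitors make first. Most differences were small rises, with 35 above 0, 13 below and a list median of 0.44. That median ran from -0.03 to 0.59 on leaving out 1 array in turn. The list had 3 higher and 6 lower without pre-CD8 array 2, 3 higher and 7 lower without CDP array 1, 2 higher and 6 lower without CDP array 3 and 11 higher and 5 lower without the arrays numbered 1. Mpo, myeloperoxidase, stood at 9.06 and 10.08 in the pre-CD8 arrays, against 12.16, 12.37 and 12.45 in the CDP arrays (-2.76 ± 0.43, adjusted p = 0.00172). The serine protease genes Ctsg and Prtn3 stood at 8.04 and 8.51 in the pre-CD8 arrays, against 11.51, 11.31 and 11.59 in the CDP arrays and at 7.18 and 7.07 in the pre-CD8 arrays, against 9.75, 9.57 and 9.74 in the CDP arrays (-3.20 ± 0.30 and -2.56 ± 0.32, adjusted p = 3.92e-05 and 0.000331). Elane, the neutrophil elastase gene, overlapped between groups, at 7.53 and 9.71 in the pre-CD8 arrays, against 9.30, 9.64 and 10.52 in the CDP arrays, and was not called (adjusted p = 0.387). Rnase6, an antimicrobial ribonuclease in the same list, went the other way at 10.78 and 10.71 in the pre-CD8 arrays, against 7.54, 8.09 and 8.09 in the CDP arrays (2.84 ± 0.28, adjusted p = 5.74e-05). Genes that neutrophils make later varied widely between the arrays of each group. For the 3 given here, pre-CD8 stood above CDP on array 2. On array 1 it did so for Camp and S100a8, while Ngp was nearly equal (5.12 and 5.10). The labels do not say if arrays of 1 number belong together, and this was not tested. Camp, the cathelicidin gene, stood at 5.99 and 10.81 in the pre-CD8 arrays, against 5.37, 8.20 and 8.27 in the CDP arrays. Ngp stood at 5.12 and 10.87 in the pre-CD8 arrays, against 5.10, 8.77 and 8.11 in the CDP arrays, and S100a8, a calprotectin subunit gene, at 8.28 and 11.95 in the pre-CD8 arrays, against 6.86, 10.25 and 10.26 in the CDP arrays. On these genes pre-CD8 array 1 and CDP array 1 were low and the other 3 arrays high, with the highest value on pre-CD8 array 2, and none of the 3 was called (adjusted p = 0.779, 0.908 and 0.88).

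**Figure D5:**
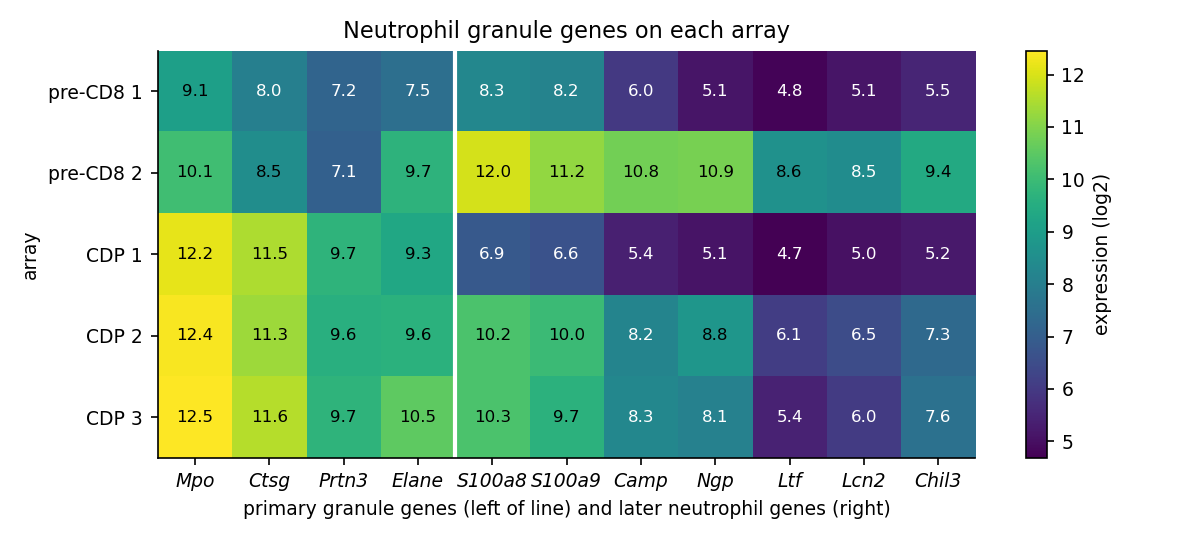
Deposited log2 values of 11 neutrophil genes on each of the 5 arrays, with colour from low (dark) to high (light). The primary granule genes Mpo, Ctsg and Prtn3 separate pre-CD8 from CDP and Elane does not, while later genes such as Camp are lowest on array 1 of both groups and highest on pre-CD8 array 2.

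Markers of other cell types were counted in 10 lists. For neutrophils 4 of 20 were called, all lower, while 13 differences were above 0 and 7 below. The list median was 0.69 and ran from -0.78 to 1.54 on leaving out 1 array in turn. The mean level over the list was 5.95 and 8.09 on pre-CD8 arrays 1 and 2, against 6.39, 7.51 and 7.50 on CDP arrays 1, 2 and 3. Ly6g, a defining surface marker, stood at 4.54 and 4.48 in pre-CD8 and 4.23, 3.87 and 3.90 in CDP and was not called. The list had 3 higher and 3 lower without pre-CD8 array 1 and 6 higher and 4 lower without the arrays numbered 1. For basophils, mast cells and eosinophils 3 of 19 were called, all higher, with list means of 4.90 and 5.33 in pre-CD8, against 4.52, 4.59 and 4.51 in CDP. Of these, Cpa3, a mast cell protease gene, stood at 5.60 and 6.24 in the pre-CD8 arrays, against 4.03, 4.33 and 4.10 in the CDP arrays (1.77 ± 0.28, adjusted p = 0.00186), and Prg2, an eosinophil granule gene, at 6.35 and 8.91 in the pre-CD8 arrays, against 4.49, 6.10 and 4.93 in the CDP arrays, a call lost without pre-CD8 array 2 (adjusted p = 0.27), CDP array 1 (adjusted p = 0.0965) and CDP array 3 (adjusted p = 0.0839). For NK cells 2 of 17 were called, both higher, Cd226 and Klrk1, with list means of 5.34 and 5.63 in pre-CD8, against 4.74, 4.81 and 4.74 in CDP. The basophil list had 1 higher without pre-CD8 array 2 or CDP array 3. For B cells 2 of 17 were higher and 2 lower (list means 5.16 and 5.13 in pre-CD8, against 5.13, 5.02 and 4.95 in CDP). For T cells 1 of 15 was higher (6.7%, against 2.29% of all genes), and for plasmacytoid DCs 2 of 19 were higher and 3 lower. Monocyte and macrophage markers gave 3 higher and 3 lower of 23, cDC2 markers 2 higher and 4 lower of 20, erythroid markers 1 higher and 1 lower of 14, and megakaryocyte markers 2 higher and 1 lower of 17. On leaving out arrays the B cell list had 1 higher and 1 lower without pre-CD8 array 1, pre-CD8 array 2 or CDP array 2 and 2 higher and 0 lower without the arrays numbered 1. The T cell list had no call without pre-CD8 array 2, CDP array 1 or CDP array 2. The plasmacytoid DC list had 1 higher and 1 lower without pre-CD8 array 2 and 1 higher and 2 lower without CDP array 1 or CDP array 3. The monocyte list had 2 higher and 5 lower without pre-CD8 array 2. The cDC2 list had 1 higher and 2 lower without the arrays numbered 1. The erythroid list had no call without pre-CD8 array 1 or the arrays numbered 1. The megakaryocyte list had 1 higher and 0 lower without pre-CD8 array 2. The part of such cells in the results was not tested.

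The largest differences beyond the top 6 in each direction held genes outside every family above. Nccrp1 stood at 9.90 and 9.28 in the pre-CD8 arrays, against 5.61, 5.50 and 5.63 in the CDP arrays (4.01 ± 0.29, adjusted p = 3.89e-06). Shtn1, whose product shootin-1 links actin flow to adhesion in neurons, stood at 9.45 and 9.88 in the pre-CD8 arrays, against 5.51, 4.99 and 5.91 in the CDP arrays (4.19 ± 0.27, adjusted p = 1.56e-06). Gpr141b, an orphan receptor gene with a close relative, stood at 7.31 and 9.88 in the pre-CD8 arrays, against 4.39, 4.47 and 4.55 in the CDP arrays, with the 2 pre-CD8 arrays far apart (4.13 ± 0.49, adjusted p = 0.000216). Gm20559 stood at 9.02 and 8.68 in the pre-CD8 arrays, against 4.85, 3.48 and 2.92 in the CDP arrays (5.10 ± 0.75, adjusted p = 0.00112). Among the falls, Gria3, a subunit of the AMPA glutamate receptor, stood at 7.86 and 6.23 in the pre-CD8 arrays, against 10.10, 10.54 and 10.48 in the CDP arrays (-3.32 ± 0.36, adjusted p = 0.000111). Muc13, a membrane mucin of blood progenitors, stood at 6.17 and 5.04 in the pre-CD8 arrays, against 8.78, 8.42 and 8.36 in the CDP arrays (-2.91 ± 0.33, adjusted p = 0.000145), and Sdc1, syndecan-1, at 4.36 and 4.87 in the pre-CD8 arrays, against 8.47, 7.59 and 7.18 in the CDP arrays (-3.13 ± 0.38, adjusted p = 0.000247). The other probe set of Sdc1 differed by only -0.71. Gm4759 was 7.39-fold lower (-2.88 ± 0.46, adjusted p = 0.00198).

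MicroRNA genes were measured through probe sets on their hairpin or primary transcripts, not on mature microRNAs. Of 478 such genes 6 were called higher and 7 lower, that is 1.26% and 1.46%, against 2.29% and 2.47% over all genes. The following were chosen after their values were seen, because they belong to clusters known in blood progenitors. Mature sequences (RefSeq, GRCm38.p6) are given 5′ to 3′ with the seed, bases 2 to 8, in capitals. Mir20a and Mir17 of the cluster on chromosome 14 share 1 seed, Mir19a has another, and Mir221 and Mir222 on the X chromosome share another.
miR-20a-5p: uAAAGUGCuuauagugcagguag
miR-17-5p: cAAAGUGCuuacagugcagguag
miR-19a-3p: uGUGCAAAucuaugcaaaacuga
miR-221-3p: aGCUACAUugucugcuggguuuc
miR-222-3p: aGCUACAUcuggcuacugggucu

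Mir20a stood at 5.50 and 5.30 in the pre-CD8 arrays, against 6.47, 6.48 and 6.51 in the CDP arrays (-1.09 ± 0.22, adjusted p = 0.0123), and Mir19a at 2.63 and 2.42 in the pre-CD8 arrays, against 4.01, 3.47 and 3.61 in the CDP arrays (-1.17 ± 0.28, adjusted p = 0.0275). The pre-CD8 arrays lay below every CDP array on both, and no called gene of any kind had overlapping arrays. Mir17, the seed partner of Mir20a, stood at 7.71 and 7.65 in the pre-CD8 arrays, against 8.54, 8.16 and 7.54 in the CDP arrays and was not called (-0.40 ± 0.41, adjusted p = 0.767). Mir221 was lower, at 2.66 and 3.45 in the pre-CD8 arrays, against 4.91, 4.77 and 4.62 in the CDP arrays (-1.71 ± 0.34, adjusted p = 0.0103), while its neighbour Mir222 stood at 5.45 and 3.28 in the pre-CD8 arrays, against 5.60, 4.73 and 4.08 in the CDP arrays and was not called (-0.44 ± 0.51, adjusted p = 0.804). On leaving out 1 array in turn the adjusted p ran from 0.0381 to 0.126 for Mir20a, from 0.0434 to 0.199 for Mir19a and from 0.0181 to 0.146 for Mir221, so each call was lost without at least 1 array. For Mir20a these were pre-CD8 arrays 1 and 2, for Mir221 pre-CD8 array 1, and for Mir19a every array but CDP array 2.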

How the data were processed

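Sorted-cell RNA went through NuGen Ovation Pico amplification and onto Affymetrix arrays, per the labels' protocols. The authors deposited 1 log2 value per probe set and array; the base of the log was inferred from the range of 0.84 to 13.1, and background correction, normalization and software: not given in the sources used here. Precision is limited by how few arrays there are. Of 35145 probe sets, 23521 listed 1 gene symbol, 1814 several and 9810 none; the highest-mean probe set was kept for each of 22180 genes, 1082 of which had several. All 12 arrays were fitted with limma 3.58.1 in R 4.3.3 with a mean for each of 5 groups (7 residual and 6.19 prior degrees of freedom), two-sided, with Benjamini-Hochberg adjustment over all genes and a threshold of 0.05. Contrasts were pre-CD8 minus CDP, pre-CD8 minus pre-CD4 and CD24 DC minus pre-CD8. List genes absent under their symbol were matched through RefSeq renames. Lists were described by counts and medians and not tested. Members and lists were chosen with earlier results of these data known. Genes named were drawn from places 7 to 20 by difference in each direction and up to 5 called genes per list and direction. The largest differences of lists with under 3 calls and sort markers were further sources. Late neutrophil and microRNA genes were added after their values were seen. Promoters and microRNAs are RefSeq sequences (GRCm38.p6), matched by symbol. The fit was tested on simulated data. Alternatives were quantile normalization, a filter on the dimmest 40% of genes, only these 5 arrays, the replicate block, the mean of a gene's probe sets, an intensity trend with a robust prior, leaving out each array and, chosen after seeing the data, leaving out the arrays numbered 1.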

Additional observations from a re-analysis of the deposited data

Results flagged for a closer look

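Probe sets outside the gene-level comparison also changed. Among the 9810 probe sets with no listed gene symbol, 70 were called higher in pre-CD8 and 61 lower (1.34%), and among the 1814 with several symbols, 27 were higher and 13 lower (2.21%), in the same limma contrast. Both shares were below the 3.45% of the 23521 probe sets with 1 symbol. They drew attention because they are signal in data that the comparison of named genes left out.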

How the results depend on the processing

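All 1057 called genes that were tested kept their direction under each alternative run. Calls numbered 1055 after quantile normalization (563 higher, 492 lower), 1127 with only the 5 arrays, 1061 with the mean of a gene's probe sets, 1173 with an intensity trend and robust prior, and 1316 of 13308 genes left by the filter on dim genes. Leaving out 1 of the 5 arrays gave 510 to 725 calls, 305 to 377 of them higher and 205 to 348 lower; fewer arrays were then fitted. Without the arrays numbered 1 there were 501 calls, 297 higher and 204 lower. Pre-CD8 and CDP share only the array numbers 1 and 2 (r of their deviations from the group means 0.42 and 0.37). Pre-CD4 array 1 gave 0.41 with pre-CD8 array 1 and 0.39 with CDP array 1. CD24 DC array 1 gave 0.42 and 0.37 with them, and its array 2 gave 0.10 and 0.11 with theirs. CD172a DC array 1, of the remaining group, gave -0.09 and -0.06. The labels do not say what the numbers mean, and the main fit did not model them. Whether they mark a shared batch was not tested. With the replicate block 1217 genes were called, 555 higher and 662 lower. Of 297 named called genes, 156 were called without each array in turn and 140 under all 12 alternatives, and none reversed. Low values, without detection calls, limit what the dim genes can show.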
